A study of Mus musculus with 6 samples.

Results

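The genes described here encode the TGF-beta, BMP and activin signalling machinery, measured in mouse pancreatic islets with and without an induced loss of the beta cell transcription factor Nkx6-1. They were taken by name from the array: the ligands of the Tgfb, Bmp, Gdf and inhibin families, the Tgfbr, Bmpr and Acvr receptors, the Smad genes, Id1 to Id4, and extracellular antagonists such as Nog, Fst and Fstl3. The names Bmp1 and Bmp2k matched as well, although their products are no ligands. This gave 59 of the 31829 gene names on the array, carried by 77 probes. Mutant islets came from Nkx6.1fl/-;Pdx1-CreERTM mice and control islets from Nkx6.1fl/+;Pdx1-CreERTM mice. All mice were males of 6 weeks on mixed backgrounds (FVB/N and C57Bl/6J for the floxed line, Cd1 and C57Bl/6J for the recombinase line), and all had received tamoxifen at 2 mg/25 g in 4 injections from the age of 4 weeks. Both groups therefore carried the floxed allele, the Cre recombinase under the Pdx1 promoter and the drug. Controls kept 1 wild-type copy of the gene, and mutants held a null allele opposite the floxed one before tamoxifen as well. Each group had 3 samples (A, B and C), each RNA sample came from 2 pancreata of 1 genotype, and 1 sample was hybridised to each of the 6 arrays.

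Ligands of this family are secreted dimers that bring together type I and type II serine/threonine kinase receptors. TGF-beta and activin receptors phosphorylate SMAD2 and SMAD3, BMP receptors phosphorylate SMAD1, SMAD5 and SMAD9, and both kinds of SMAD enter the nucleus with SMAD4, where the Id genes are classic targets of the BMP branch. In the pancreas the family is known for roles in endocrine differentiation, islet size and insulin secretion, with activin B and ALK7 (the product of Acvr1c) among the ligands and receptors of beta cells.

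The mature ligands share a cystine knot whose last cysteines stand near the end of the protein as Cys-X-Cys. Some probes of the array lie on just this part, so they show the family's signature in letters. A search of all 39429 probe sequences for the codon TGT, a codon that begins with G, a further TGT and then an A, which in that frame spells cysteine, another residue and cysteine, found it in 3 of the 77 member probes, all on the probe's own strand, and in 0.558% of all probes on either strand. The 3 probes are shown with the motif in capitals, each 5′ to 3′ with its mm9 position and strand. They are printed because 1 of them reports Bmp3, a ligand that rose in mutant islets.
Bmp3, chr5:99308890-99308949, plus strand: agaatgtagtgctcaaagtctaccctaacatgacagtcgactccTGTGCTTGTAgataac
Bmp10, chr6:87384427-87384486, plus strand: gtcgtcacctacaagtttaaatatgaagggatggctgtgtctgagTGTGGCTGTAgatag
Inha, chr1:75506675-75506734, plus strand: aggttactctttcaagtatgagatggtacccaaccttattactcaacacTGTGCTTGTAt
Read in the frame of the motif, the Bmp3 probe reached a stop codon at base 57 and the Bmp10 probe at base 58, so both end at the close of the coding sequence. The Inha probe ended before a stop codon. Of the 77 member probes, 1 shared a run of 20 bases with the probe of another gene name. It was a Bmp4 probe that did not enter the test.

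Signal is given as the normalized log2 signal, the log2 of the background-corrected intensity minus the 75th percentile of its array. It orders the arrays for a gene and does not rank genes against each other. Of the 59 members, 54 entered the test because a probe exceeded its background clearly on all arrays of 1 group or of both, and 48 of these did so on all 6 arrays. None of the tested members had a saturated pixel on any array. Bmp15, Bmp5, Gdf2 and Gdf6 were not well above background on any array, and Grem1 stood above it on 1 control array only, so these 5 were not tested. For arrays, the number of samples limits the precision, and it is 3 for each group. P-values measure the spread between these pooled samples.

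In mutant islets 3 of the 54 tested members rose and 0 fell at an adjusted p under 0.05 (limma over 22775 gene names, Benjamini-Hochberg). They were Bmpr1b, a type I BMP receptor, Tgfbr3, the co-receptor betaglycan, and Bmp3, a ligand known as an antagonist of other BMPs. Over all gene names tested, 2.53% passed, 1.41% as rises and 1.12% as falls, and a count of 3 is too small to set the members apart from that background. With slide as a block the same 3 passed, against 2.94% of all gene names. The unadjusted p was under 0.05 for 29.6% of the tested members (16 genes) and for 20.2% of all gene names (4600). That count of members was 11 with normexp, 12 with quantile normalization and 13 with the deposited table, beside 4326, 4648 and 4556 gene names. In the roles with no member past the threshold (limma), the unadjusted p was under 0.05 for 3 of 5 activin and inhibin subunits, 2 of 8 GDF ligands, 1 of 8 SMADs, 1 of 4 ID genes, 2 of 4 antagonists and 0 of 3 TGF-beta ligands. The median difference of the tested members was 0.010 on the log2 scale, with 28 above 0 and 26 below, beside a median of -0.025 over all gene names. The median size of a difference was 0.28 for the members and 0.22 for all gene names. The arrays of the groups did not overlap in 10 members that were higher and 8 that were lower in mutants, which is 33.3% of those tested, against 26.3% of all gene names (12.3% higher and 14.0% lower).

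**Figure D1:**
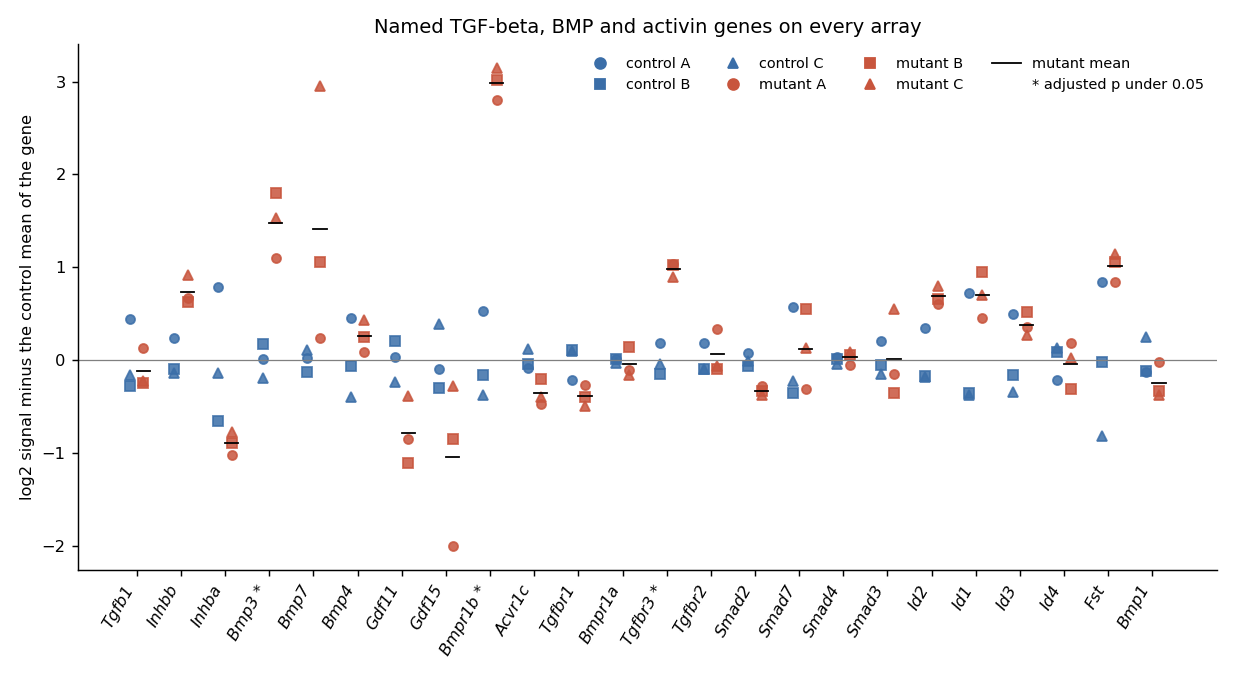
Normalized log2 signal of the members named with values on each of the 6 arrays, with the mean of the 3 control arrays of each gene set to 0 (vertical axis, log2) and genes ordered by role (horizontal axis). Blue symbols are control arrays, red symbols mutant arrays, black lines mutant means, and asterisks mark Bmpr1b, Tgfbr3 and Bmp3; the 3 mutant arrays of Bmpr1b lie far above the control mean, while those of Bmp7 and Gdf15 are spread widely.

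The islet label held on every array. All 7 beta cell markers, 6 alpha cell markers and 4 delta cell markers were well above background on all 6 arrays. The mean log2 signal of the beta cell list, set against its control mean, was -0.06 to 0.11 in controls and -0.58 to -0.45 in mutants. This list includes the targeted gene Nkx6-1 itself. The alpha cell list stood at -0.30 to 0.27 in controls and 0.34 to 0.70 in mutants, and the delta cell list at -0.53 to 0.37 in controls and 0.42 to 0.88 in mutants, so these lists separated the groups too. The acinar list, 16 genes of the digestive enzyme cells around islets, was -0.23 to 0.31 in controls and -0.75, 0.92 and 1.85 in mutants A, B and C. Its defining genes were above background on all arrays. The mesenchyme and leukocyte lists were highest in control A, at 0.74 and 0.49, and lay between -0.52 and 0.51 on the other arrays. The part of these shifts in the results on the signalling genes was not tested, except where a value with the acinar mean as a covariate is given. In bulk islet RNA, fewer cells of a type and less RNA per cell cannot be told apart. The share of probes well above background was 66.8% and 63.9% on mutant arrays A and B and 73.4% to 76.3% on the other 4. Control A and mutants B and C shared slide 1, and controls B and C and mutant A shared slide 2. The Nkx6-1 probe, which may or may not lie in the deleted part of the gene, gave a difference of -0.48 (SE 0.14, adjusted p = 0.131), with all mutant arrays below all control arrays.

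**Figure D2:**
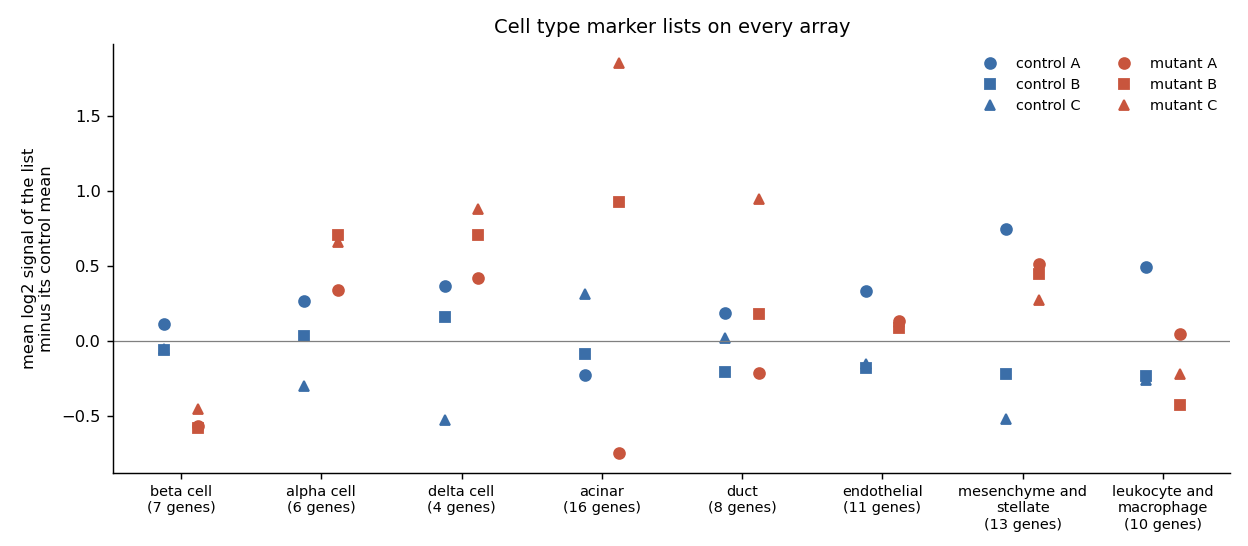
Mean log2 signal of 8 cell type marker lists on each array, with the mean of the control arrays set to 0 (vertical axis, log2); each symbol is 1 array. The beta cell list is lower on the 3 mutant arrays than on the controls, the alpha and delta cell lists are higher, and the acinar list spreads from -0.75 to 1.85 among the mutants.

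Bmpr1b showed the strongest change of the tested members. It encodes ALK6, a type I receptor that binds BMPs and GDFs and signals through SMAD1, SMAD5 and SMAD9. Its log2 signal was -3.64, -4.33 and -4.55 in controls A, B and C and -1.37, -1.15 and -1.02 in mutants A, B and C. Every mutant array was thus far above every control array, and control A was the highest of the controls. The mean rose from -4.17 ± 0.48 (SD, n = 3) to -1.18 ± 0.18 (SD, n = 3), a 7.93-fold rise (log2 difference 2.99, SE 0.25, adjusted p = 0.0125). A second Bmpr1b probe, at chr3:141500694-141500753 (mm9, minus strand) beside the first at chr3:141503374-141503433, read -4.61, -5.12 and -5.47 in the controls and -2.08, -2.23 and -1.92 in the mutants. Both probes therefore gave the same difference of 2.99. The rise was 2.55 within slide 1 and 3.07 within slide 2, and with the acinar mean as a covariate it was 2.94 (adjusted p = 0.0429). The call was lost without control B, control C, mutant B or mutant C, with adjusted p of 0.0743, 0.0512, 0.0681 and 0.05, while the difference stayed between 2.80 and 3.25 in every fit with 1 array left out.

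For Bmpr1b the RefSeq table gives 3 promoter windows (GRCm38.p6), and the 250 bases before the start of the one farthest upstream, chr3:141982265-141982514 on the minus strand, are shown with the SMAD-type box CAGAC in capitals.
Bmpr1b: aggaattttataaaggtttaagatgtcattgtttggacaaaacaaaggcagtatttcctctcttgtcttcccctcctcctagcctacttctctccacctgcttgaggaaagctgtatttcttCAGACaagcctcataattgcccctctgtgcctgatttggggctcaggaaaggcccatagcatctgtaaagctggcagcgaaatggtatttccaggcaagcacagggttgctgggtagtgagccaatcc
The letters CAGAC, searched on both strands, stood in 23 of the 49 windows of members and in 42.2% of all 32851 windows, so the match is a common one. The homeodomain core TTAATTA was found in 0 of the 49 member windows and in 2.78% of all windows. Of the 59 members, 41 had a window in the table.

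None of the other type I receptors passed. Tgfbr1 (ALK5), the type I receptor for TGF-beta, was at 0.50, 0.83 and 0.82 in the controls and at 0.46, 0.32 and 0.22 in the mutants. The mutant arrays lay below the controls by a narrow gap, with a difference of -0.38 (SE 0.14, adjusted p = 0.194). A dimmer Tgfbr1 probe, above background on 2 of the 3 mutant arrays, gave -1.05 (adjusted p = 0.0555 in the fit over probes). Acvr1c, which encodes ALK7, was at -0.61, -0.57 and -0.42 in controls and -1.004, -0.74 and -0.93 in mutants. Its mutant arrays were likewise below all control arrays, and its probes gave differences of -0.36 (SE 0.12, adjusted p = 0.174) and -0.35. Bmpr1a (ALK3), the other main BMP type I receptor, was at 0.89, 0.89 and 0.84 in controls and 0.76, 1.02 and 0.71 in mutants. Its groups overlapped, and the difference of -0.043 (SE 0.12) turned to 0.017 without mutant C. Acvr1 (ALK2), Acvr1b (ALK4, the activin receptor) and Acvrl1 (ALK1, known from endothelium) differed by 0.039, 0.11 and -0.096.

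Tgfbr3, betaglycan, presents TGF-beta2 to its receptors and binds inhibin. Its log2 signal was 0.22, -0.11 and -0.0037 in controls A, B and C and 1.07, 1.06 and 0.93 in mutants A, B and C. The mutant arrays lay close together and clear of the controls. The mean rose from 0.034 ± 0.17 (SD, n = 3) to 1.02 ± 0.081 (SD, n = 3), which is 1.98-fold (log2 difference 0.99, SE 0.12, adjusted p = 0.0256). It was 0.77 within slide 1 and 1.13 within slide 2. The adjusted p was 0.0616 with the acinar covariate, and 0.117, 0.132, 0.0601, 0.113 and 0.0664 without control B, control C, mutant A, mutant B and mutant C, at differences of 0.91 to 1.08 over all fits with 1 array left out.

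None of the type II receptors passed. Tgfbr2, which binds TGF-beta, was at -0.21, -0.48 and -0.48 in controls and -0.055, -0.49 and -0.45 in mutants. The groups overlapped almost entirely, with a difference of 0.063 (SE 0.16) for the brighter probe and -0.56 (adjusted p = 0.288 over probes) for a dimmer one that was above background on 1 mutant array. Bmpr2, Acvr2a and Acvr2b, the receptors for BMPs and activins, differed by -0.061, 0.18 and 0.0027, with SEs between 0.12 and 0.14.

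Among the BMP ligands Bmp3 alone passed. Its log2 signal was -3.94, -3.77 and -4.15 in controls A, B and C and -2.85, -2.15 and -2.42 in mutants A, B and C. All mutant arrays were above all control arrays, with a gap of nearly a unit between the groups. The mean rose from -3.95 ± 0.19 (SD, n = 3) to -2.47 ± 0.35 (SD, n = 3), a 2.79-fold rise (log2 difference 1.48, SE 0.21, adjusted p = 0.0313), measured by the single probe shown above that ends on the Cys-X-Cys of the ligand. It was 1.65 within slide 1 and 1.11 within slide 2. The adjusted p was 0.0753 with the acinar covariate, and 0.0607, 0.113, 0.143, 0.103 and 0.0871 without control A, control B, control C, mutant B and mutant C, at differences of 1.32 to 1.67 over all fits with 1 array left out.

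Bmp7, a BMP of epithelia and kidney, was at -3.32, -3.47 and -3.23 in controls A, B and C and -3.11, -2.29 and -0.39 in mutants A, B and C. The mutant arrays were all above the controls, but mutant A by little and mutant C by far, and the difference of 1.41 had an SE of 0.66 (adjusted p = 0.301). The acinar list had the same order over the mutants (-0.75, 0.92 and 1.85), as had the duct list (-0.21, 0.18 and 0.95). The delta cell list shared that order as well (0.42, 0.70 and 0.88). With the acinar mean as a covariate the Bmp7 difference was 0.77 (adjusted p = 0.316), and without mutant C it was 0.64. Bmp4, a ligand with a part in islet insulin secretion, was at -3.35, -3.87 and -4.20 in controls and -3.72, -3.56 and -3.38 in mutants. Those arrays overlapped, with a difference of 0.26 (SE 0.23) that was 0.48 without control A and 0.060 without control C. Bmp6, known for iron control, was higher on all mutant arrays by 0.48 (adjusted p = 0.177), and Bmp8b lower by a difference of -0.45 (adjusted p = 0.230). Bmp8b was well above background on 1 of the 3 mutant arrays only, and mutant C, at -5.71, lay next to control C, at -5.70. Bmp2, Bmp8a and Bmp10 differed by 0.76, -0.28 and -0.13 with overlapping arrays.

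**Figure D3:**
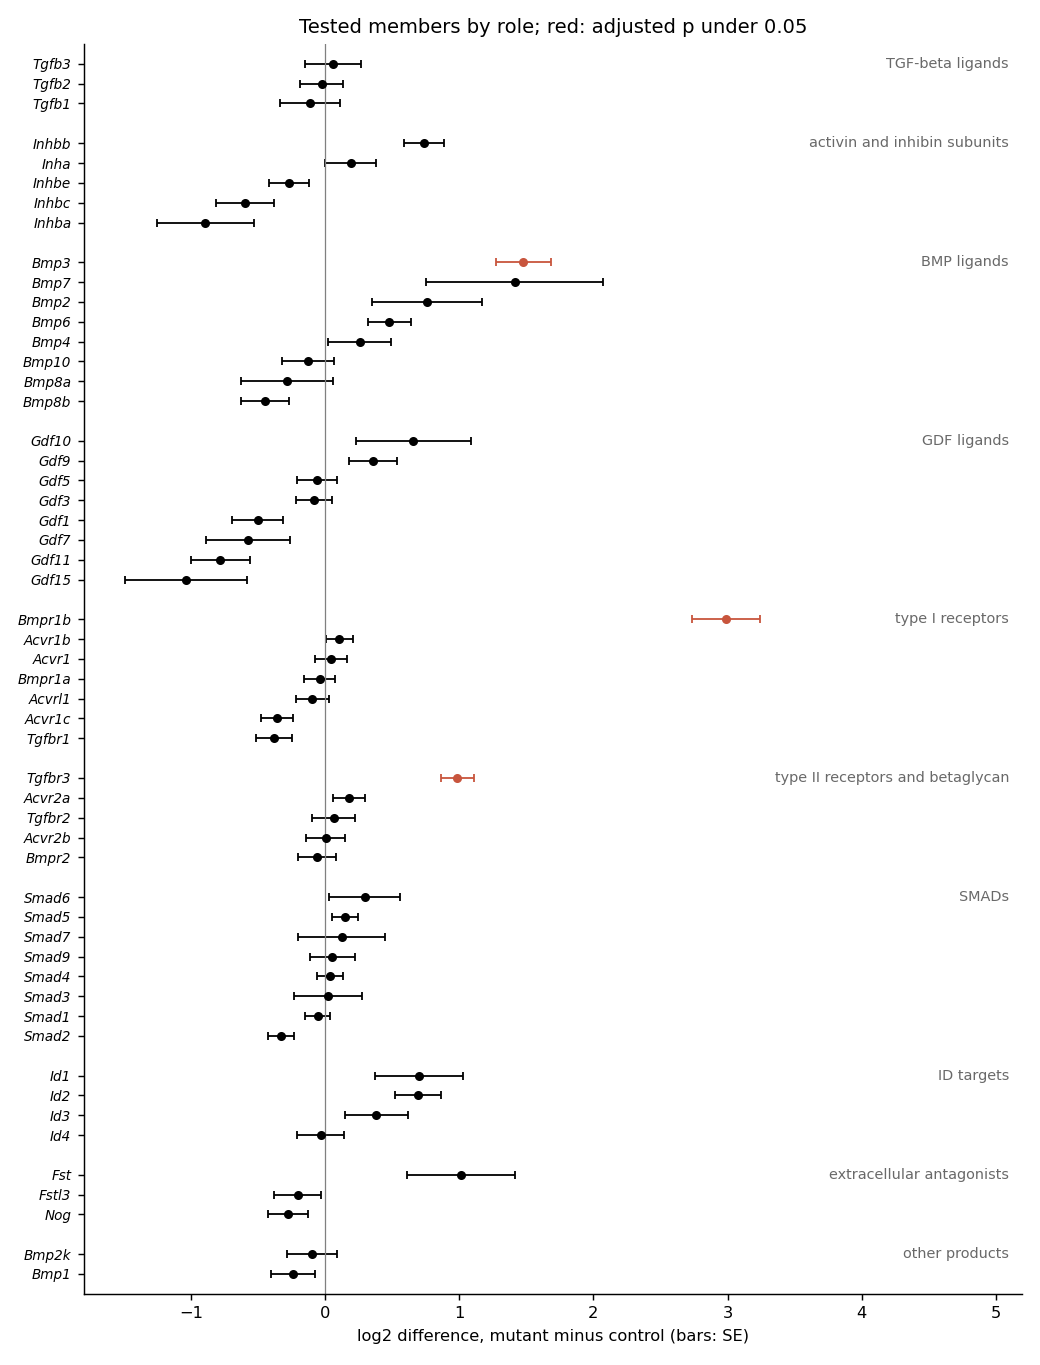
Log2 difference, mutant minus control, of tested members with the SE (horizontal axis), grouped by role and ordered within a role (vertical axis). Bmpr1b, Tgfbr3 and Bmp3, in red, passed an adjusted p under 0.05; the SMADs and type II receptors cluster near 0, and the wide bars belong to Bmp7, Gdf15 and Gdf10.

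The activin and inhibin subunits had differences of both signs, and none passed. Inhbb, whose product forms activin B, was at -2.13, -2.46 and -2.51 in controls A, B and C and -1.69, -1.73 and -1.45 in mutants A, B and C. All mutant arrays lay above all control arrays, with a difference of 0.74 (SE 0.15, adjusted p = 0.0665) that was 0.54 within slide 1 and 0.79 within slide 2. Inhba, whose product forms activin A, was at -2.40, -3.85 and -3.33 in controls and -4.21, -4.08 and -3.97 in mutants. Here the mutant arrays were tightly grouped below the controls, the controls spread over more than a unit with control A highest, and the difference was -0.89 (SE 0.36, adjusted p = 0.240), being -1.62 on slide 1 and -0.62 on slide 2. Without control A it was -0.50. Inhbc, a subunit known from liver, was not well above background on any mutant array (difference -0.60, adjusted p = 0.202). Its control mean was 1.13-fold above a mean floor. On each mutant array the floor is the dimmest signal still called above background, or the probe's own where that is brighter. This ratio takes no account of the spread between arrays, and control B, at -6.21, lay close to mutant B, at -6.25. Inhbe, also a liver subunit, and Inha, the inhibin alpha subunit that blocks activin, differed by -0.27 and 0.19 with overlapping arrays.

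Of the 8 tested ligands named GDF, 6 had differences below 0 and none passed. Gdf11, known in mice as a regulator of endocrine progenitor number, was at -6.87, -6.70 and -7.14 in controls and -7.75, -8.01 and -7.29 in mutants. It was well above background on the controls only, close to the floor of the array, so no fold is given. Its control mean, -6.90, lay below the mean floor of the mutant arrays, -6.26, taken as for Inhbc. The difference was -0.78 (SE 0.22, adjusted p = 0.126), and it was 0.041 under another background correction (normexp) and -0.18 with the deposited table. Gdf15, a stress-induced cytokine, was at -3.49, -3.69 and -3.01 in controls A, B and C and -5.40, -4.24 and -3.67 in mutants A, B and C. Mutant A was lowest by more than a unit, mutant C overlapped the controls, and the difference was -1.04 (SE 0.45, adjusted p = 0.273). It was -0.56 without mutant A, -0.60 with normexp and -0.63 with the deposited table, and with the acinar covariate it was -1.50 (adjusted p = 0.0458). Gdf1, a partner of Nodal, was lower on all mutant arrays with its brighter probe. That difference was -0.50 (adjusted p = 0.212), being -0.092 on slide 1 and -0.73 on slide 2. A dimmer Gdf1 probe gave -0.84 (adjusted p = 0.481 over probes) with overlapping arrays. Gdf3, Gdf5, Gdf7, Gdf9 and Gdf10 had overlapping arrays and differences from -0.58 for Gdf7 to 0.66 for Gdf10. A dimmer Gdf3 probe gave -1.30 (adjusted p = 0.0988 over probes) against -0.084 for the brighter one, so the array gives Gdf3 no single value.

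The TGF-beta ligands, broad regulators of growth and matrix, had differences smaller than the spread between control arrays. Tgfb1 was at -3.02, -3.74 and -3.62 in controls and -3.33, -3.70 and -3.69 in mutants. The groups overlapped, with a difference of -0.11 (SE 0.23) that turned to 0.11 without control A. Tgfb2 and Tgfb3 differed by -0.027 (SE 0.16) and 0.055 (SE 0.21).

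The SMADs, which carry the signal to the nucleus, showed small differences, none past the threshold. Smad2, of the TGF-beta and activin branch, was at -0.58, -0.72 and -0.66 in controls A, B and C and -0.92, -0.98 and -1.03 in mutants A, B and C. Both groups were tight and did not overlap, and the difference was -0.33 (SE 0.097, adjusted p = 0.142), being -0.43 on slide 1 and -0.24 on slide 2. Smad3, its partner, was at -1.30, -1.56 and -1.66 in controls and -1.66, -1.86 and -0.96 in mutants. Mutant C was highest and mutant B lowest of the 6, and the difference of 0.018 (SE 0.25) was -0.25 without mutant C. Smad4, shared by both branches, was at 2.23, 2.21 and 2.15 in controls and 2.15, 2.26 and 2.29 in mutants, with a difference of 0.035 (SE 0.097) for one probe and -0.20 (SE 0.16) for a dimmer one. Smad7, an inhibitory SMAD induced by the pathway, was at -0.82, -1.75 and -1.61 in controls and -1.70, -0.84 and -1.26 in mutants. Control A and mutant B, both on slide 1, were the highest of these. The difference was 0.12 (SE 0.32) and, with slide as a block, -0.13. Smad6, the inhibitor of the BMP branch, and Smad1, Smad5 and Smad9 differed by 0.29, -0.057, 0.15 and 0.053. Of these Smad5 alone was higher on all mutant arrays (adjusted p = 0.437).

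The ID genes encode dominant-negative partners of helix-loop-helix factors and are read as targets of BMP signalling. Id2 was at -0.0045, -0.52 and -0.53 in controls A, B and C and 0.26, 0.31 and 0.45 in mutants A, B and C. All mutant arrays were above all controls, with control A nearest to them, and the difference was 0.69 (SE 0.17, adjusted p = 0.102), or 0.39 within slide 1 and 0.78 within slide 2. Without control A it was 0.86 and passed (adjusted p = 0.0431). Id1 was at 0.10, -0.97 and -0.995 in controls and -0.17, 0.33 and 0.078 in mutants. Control A reached the level of the mutants while controls B and C lay a unit lower, and the difference was 0.70 (SE 0.33, adjusted p = 0.302), or 0.098 within slide 1 and 0.81 within slide 2, and 1.06 without control A (adjusted p = 0.0574). Id3 was at 0.64, -0.022 and -0.20 in controls and 0.49, 0.65 and 0.41 in mutants. It had the same layout, with a difference of 0.38 (SE 0.23, adjusted p = 0.414) that was -0.11 within slide 1 and 0.61 within slide 2, 0.63 without control A and 0.21 without control C. Id4 was at -3.83, -3.53 and -3.48 in controls and -3.43, -3.93 and -3.59 in mutants, with overlapping arrays and a difference of -0.035 (SE 0.17) that was 0.075 with slide as a block. Control A, the highest control for Id1, Id2 and Id3, was also the array with the highest mesenchyme and leukocyte lists. The endothelial list (0.33) and the beta cell list (0.11) were highest on control A too.

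The promoter of Id2 is shown because the GC box GGCGCC, known from BMP-responsive elements, is present in it. These are the 250 bases before the RefSeq start, chr12:25096093-25096342 on the minus strand of GRCm38.p6, with the box in capitals.
Id2: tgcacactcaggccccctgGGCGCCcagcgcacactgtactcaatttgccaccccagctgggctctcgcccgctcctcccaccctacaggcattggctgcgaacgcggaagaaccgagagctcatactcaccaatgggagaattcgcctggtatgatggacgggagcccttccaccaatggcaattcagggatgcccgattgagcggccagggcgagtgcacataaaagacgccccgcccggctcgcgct
On both strands GGCGCC was found in 10 of the 49 member windows and in 9.59% of all windows. The windows with it belonged to Id2 and Id4 but also to Bmp2k, Bmpr1a, Bmpr2, Gdf1, Grem1, Smad5, Smad9 and Tgfbr1. Grem1 was not tested, and none of the others passed.

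**Figure D4:**
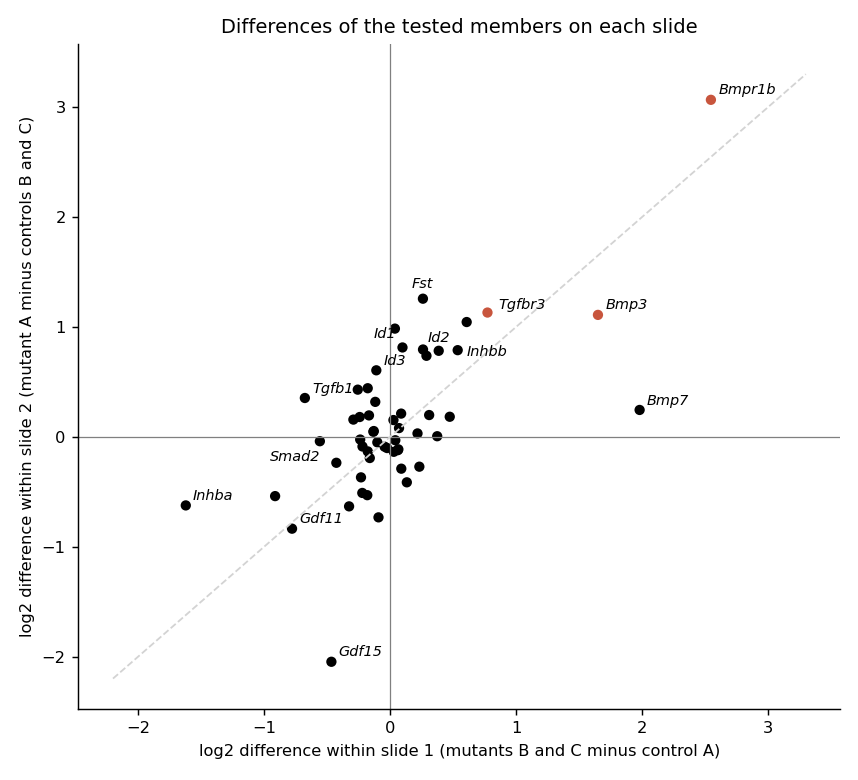
Log2 difference of each of the 54 tested members within slide 1 (mutants B and C minus control A, horizontal axis) and within slide 2 (mutant A minus controls B and C, vertical axis), with red points for the 3 members that passed and a dashed line where both are equal. Bmpr1b, Tgfbr3 and Bmp3 are above 0 on both slides, Id1 and Fst are higher mainly on slide 2, Bmp7 mainly on slide 1, and Id3 and Tgfb1 have opposite signs.

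Of the extracellular antagonists none passed. Fst, follistatin, which traps activins, was at -5.64, -6.49 and -7.30 in controls A, B and C and -5.64, -5.42 and -5.33 in mutants A, B and C. Control A equalled mutant A, control C was lowest and not all controls were above background (2 of 3), and the difference was 1.01 (SE 0.41, adjusted p = 0.240), being 0.26 on slide 1 and 1.26 on slide 2. It was 0.43 with normexp, 0.42 with the deposited table and 0.60 without control C. Nog (noggin) and Fstl3, which bind BMPs and activins respectively, differed by -0.28 and -0.21 with overlapping arrays. Of the 2 names that matched although their products are no ligands, Bmp1, a metalloprotease that processes procollagen, was at 2.80, 2.81 and 3.17 in controls and 2.91, 2.60 and 2.55 in mutants. Its arrays overlapped, with a difference of -0.24 (SE 0.16), and Bmp2k, a kinase, differed by -0.099.

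Fits over probes instead of gene names gave 4 called member probes, those of Bmp3 and Tgfbr3 and both of Bmpr1b, beside 2.75% of all 28361 probes tested. Among the 15 members with several tested probes, differences had 1 sign in 10. The probes disagreed in sign for Acvr1, Acvr2a, Smad4, Tgfb2 and Tgfbr2, so those genes have no direction here.

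The pathway holds more genes than the names above take in. Further ligands, co-receptors, antagonists, matrix carriers, proteases, regulators and targets were listed for this purpose under 83 symbols. Some of these symbols, such as Ctgf and Ccn2, name the same gene. The list matched 81 gene names on the array, 70 were tested, and 1 rose and 0 fell at the same threshold, which 2.53% of all gene names passed. The unadjusted p (limma) was under 0.05 for 14.3% of the 70 (10 genes), against 20.2% of all gene names. The median difference of the 70 was 0.041, with arrays that did not overlap in 22.9% of them, against 26.3% of all gene names. The one that rose was Mstn, myostatin, a ligand of the activin branch known for limiting muscle growth. Its log2 signal was -6.60, -6.58 and -6.86 in controls A, B and C and -4.90, -5.20 and -5.27 in mutants A, B and C. It was above background on 1 of 3 control arrays and on all mutant arrays, so it entered the test through the mutants, and the fitted difference of 1.55 (SE 0.15, adjusted p = 0.0151) rests on control values at or near background. Mstn was not called with the deposited table, where Ltbp2 passed in its place, nor without control B, control C or mutant B, and a filter on all 6 arrays left it out. None of the 23 cytoplasmic and nuclear regulators passed in the main fit. Among them were the ubiquitin ligases Smurf1 and Smurf2 and the corepressors Ski and Skil. The differences of the regulators ran from -0.45 to 0.48. Of the regulators, Tgif2 passed with the mean of a gene's probes. Outside them, the co-receptor Tdgf1 passed with the dimmest probe and the protease Tll2 with no filter on dim probes. Of the 16 tested targets known from other cells none passed either. With slide as a block, Cdkn1a, the p21 cell cycle inhibitor, fell by 1.26 (adjusted p = 0.0397), where the fit without the block gave -1.04 (adjusted p = 0.127). Ltbp2, a latent TGF-beta binding protein of the matrix, had the widest difference of this list, -2.19 (SE 0.44, adjusted p = 0.064). It passed with normexp, with the deposited table, with a variance trend and without mutant A. Cdkn1a, Ltbp2, Tgif2, Tdgf1 and Tll2 were singled out after their values were seen.

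Of the 3 members that rose, 2 lie on the chromosome of the targeted gene. The Tgfbr3 probe, chr5:107535818-107535877 (mm9, minus strand), is 5.45 Mb from the Nkx6-1 probe at chr5:102088319-102088378, and the Bmp3 probe is 2.78 Mb from it on the other side. Within 10 Mb of the Nkx6-1 probe 10 of 189 tested genes passed (5.29%), 5 of them as rises, and within 20 Mb 15 of 396 (3.79%), beside 2.53% of all gene names. Bmp3 and Tgfbr3 are themselves included in these counts and shares. Bmp2k, the third member in that stretch, differed by -0.099 and did not pass. The mice came from mixed strains, and the labels do not say in which strain the null allele was made. The part of strain sequence linked to that allele was not tested.

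**Figure D5:**
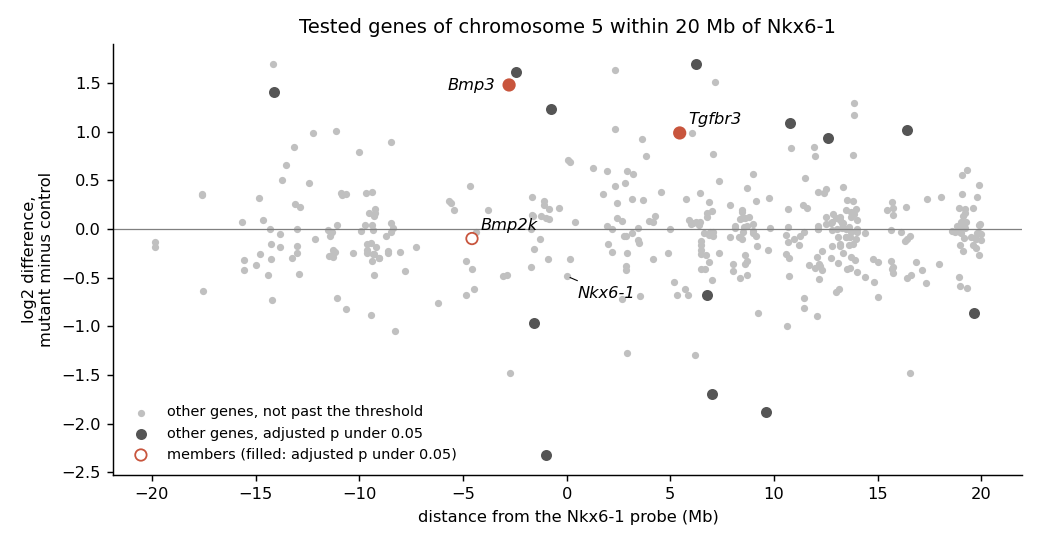
Log2 difference, mutant minus control (vertical axis), of the 396 tested genes whose probes lie within 20 Mb of the Nkx6-1 probe, by their distance from it in Mb (horizontal axis); dark points passed an adjusted p under 0.05, and red circles are members of the signalling family. Bmp3 and Tgfbr3 stand among called genes of both directions on either side of Nkx6-1.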

How the data were processed

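RNA of 6 pooled islet samples (150 ng each, Cy3) was measured on single-colour Agilent arrays. Scanner output of the authors was made with Agilent Feature Extraction, version 10.7.3.1 per the submitters' processing notes, and holds background-corrected spot intensities and other values (flags), per the file headers. A further deposited table of intensities, equalized in a way not given in the sources used here (rank correlation with the spots' median signal 0.999 or more), served as an alternative.

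The authors' intensities were turned to log2, averaged over the spots of a probe, and reduced by their array's 75th percentile. A probe was tested where over 0.5 of its spots exceeded background clearly on all arrays of 1 group or of both, and the brightest tested probe stood for a gene name. The test was limma's, two-sided (version 3.58.1, R 4.3.3, with version 1.17.8 of data.table), and the code was tested on simulated data. Probe positions are those of the files (mm9). Accessions gave 76 of 77 member probes a current symbol. Whether a probe lies in an exon or UTR was not analysed here.

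The values of 1 tested member are not reported here. The members and lists were chosen with earlier results of these data known. Values on every array are given for members past the threshold (with or without a slide block), with a log2 difference of at least 1, leading a role otherwise empty, and for a core of activin, BMP and SMAD genes in any case.

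Replicate letters are shared by the groups, but no label makes them pairs. Deviations of same-letter samples correlated at -0.23, -0.19 and -0.031 across genes, and the main fit did not use them as pairs. Samples of the same letter always lay on different slides. Control and mutant samples that shared a slide correlated at 0.20, 0.084, 0.23 and 0.12. Letter and slide are thus mixed, and these correlations cannot settle whether the letters mark pairs. Alternatives were other background corrections, scalings, filters, probe choices, blocks, thresholds and each array left out. The acinar covariate and the fit without mutants A and B were chosen after seeing the data.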

Additional observations from a re-analysis of the deposited data

How the results depend on the processing

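The count of members past the threshold was 3 under every other background correction, scaling, source of values, filter, probe rule and variance model tried. It was also 3 with slide as a block. In those fits 1.3% to 3.49% of all gene names passed. At an adjusted p under 0.1 the count was 4, where Inhbb joined, beside 6.65% of all gene names (1514). It was 0 with the replicate block (letters A to C), under which 0 of all gene names passed (limma). The unadjusted p was then under 0.05 for 10 members and 3163 gene names, and the adjusted p was 0.119 for Bmpr1b, 0.154 for Bmp3 and 0.169 for Tgfbr3. With 1 array left out the count ran from 0 to 3. It was 3 without control A (Bmpr1b, Tgfbr3 and Id2), when 418 gene names passed, and 2 without mutant A, when 283 passed. The unadjusted p was under 0.05 for 22 members and 5994 gene names without control A, and for 11 and 5366 without mutant A. The count past the threshold was 0 without control B, control C, mutant B or mutant C, when 13, 21, 20 and 72 gene names passed. In those fits 11, 8, 11 and 11 members had an unadjusted p under 0.05, beside 3044, 2948, 3152 and 4194 gene names. With the acinar covariate the count of members was 2 (Bmpr1b, and Gdf15 as a fall), when 137 gene names passed (0.602%). No count is given without mutants A and B together, which leaves 1 mutant array. The count of member probes, 4, was 0 with the replicate block and ran from 0 to 5 with 1 array left out. The count of other pathway genes, 1, was 2 with normexp, no filter, slide block, variance trend, mean or dimmest probe and an adjusted p under 0.1. It was 0 with a filter on all 6 arrays, the replicate block and without mutants A and B, and ran from 0 to 2 with 1 array left out.

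Among the members given with values on every array, signs turned as follows. With normexp Gdf11 was 0.041, Id4 0.056 and Smad4 -0.0055. With the deposited table Id4 was 0.012, Smad4 -0.018 and Tgfbr2 -0.0020. With slide as a block Id4 was 0.075, Smad3 -0.076 and Smad7 -0.13. With the mean of the probes Smad4 was -0.081 and Tgfbr2 -0.25, and with the dimmest probe -0.20 and -0.56. With the acinar covariate Id4 was 0.0094, Smad3 -0.11 and Tgfb1 0.0080, and without mutants A and B Id4 was 0.020 and Tgfbr2 -0.059. With 1 array left out the differences that turned ran from -0.14 to 0.017 for Bmpr1a, -0.15 to 0.10 for Id4, -0.25 to 0.20 for Smad3, -0.092 to 0.41 for Smad7, -0.25 to 0.11 for Tgfb1 and -0.075 to 0.15 for Tgfbr2. Of the other members, followed only with slide as a block and the acinar covariate, Acvr1 (-0.024 and -0.029) and Tgfb2 (0.014 and 0.085) turned under both and Smad9 (-0.031) and Tgfb3 (-0.067) with slide as a block. The cause of these turns was not tested.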
